A study of Mus musculus with 1 sample.

Results

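The genes described here are 9 regulators of cell death: the anti-death genes *Bcl2*, *Bcl2l1* (BCL-XL) and *Mcl1*, the pore-forming effectors *Bax* and *Bak1*, the BH3-only genes *Bcl2l11* (BIM), *Bid* and *Bad*, and the initiator caspase *Casp8*. They were taken by gene symbol from 1 single-cell library of control fetal testes, in which they were 9 of 22631 genes. The library came from testes at embryonic day 14.5 of pooled controls, labelled WT. The paper counts 12 control testes, so the number of fetuses pooled cannot be told. By the study's methods the controls were fetuses with loxP-flanked *Nr5a1* alleles (*Nr5a1* L2/L2) and no Cre transgene, on a mixed C57BL/6-129/SvPass background. They thus carried the floxed alleles too. The text of the study also names an earlier embryonic day for these cells, and the day of each testis cannot be told from the pool. The study asked how the loss of NR5A1, a nuclear receptor, from Sertoli cells affects the fetal testis, including the death of these cells, and the values below give the levels of death regulators in the cells of control testes.

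Proteins of the BCL2 family decide whether the outer membrane of the mitochondrion is opened. BAX and BAK1 form the pores, BCL2, BCL-XL and MCL1 hold them in check, and the BH3-only proteins BIM, BID and BAD, set off by stress or by loss of survival signals, free or activate the effectors. Caspase 8 is activated at death receptors on the cell surface and cleaves BID, which links that route to the mitochondrion. In the mouse testis this family is best known for the control of germ cell number, since surplus germ cells are removed by a BAX-dependent route.

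The library held 72595083 UMIs (unique molecular identifiers, each standing for 1 captured transcript 3' end) in 5421 barcodes, of which 3814 were kept. Clusters of cells were named from marker lists, and none of the 9 genes was among the genes used for clustering. The classes were 846 Sertoli-like cells, 251 germ-like cells, 226 Leydig-like cells, 1465 interstitial-like cells, 518 peritubular myoid-like cells, 153 coelomic epithelium-like cells, 110 perivascular-like cells, 42 endothelial-like cells and 36 immune-like cells. A further 167 cells in 2 clusters stayed unnamed. All 11 Sertoli markers and all 8 germ cell markers were detected in the clusters that bear those names, with *Amh*, *Dhh* and *Ptgds* among the leading genes of the first and *Dppa3*, *Dazl* and *Ddx4* among those of the second. Depth differed between the classes, with a median of 14371 UMIs per Sertoli-like cell and 35917 per germ-like cell. Levels are therefore given as UMIs of a gene as counts per 1000000 UMIs of the class (CPM), with exact 95% Poisson intervals in brackets. UMIs count transcript ends, so the values were not divided by gene length. With 1 library there was no replicate, cells are not replicates, and no test was made. All intervals cover counting error only.

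On the GRCm38 build the annotation places *Bcl2* (chr1:106538178-106714274) and *Casp8* (chr1:58795374-58847503) on 1 chromosome, and *Bax* at chr7:45461697-45466898. All 9 genes matched RefSeq promoter entries (GRCm38.p6), 13 in all. The 250 bases before the RefSeq start are shown for 3 genes that differ in the results below, 2 of them almost absent from germ-like cells (*Casp8* and *Bcl2*) and 1 highest there (*Bax*). None of these 3 stretches overlaps an annotated exon. The *Casp8* stretch lies inside the annotated gene, before an internal RefSeq start. Those of *Bcl2* and *Bax* lie outside the annotated genes, next to their starts. Capitals mark the GC box GGGCGG and the CCAAT box CCAAT on either strand.
Casp8, chr1:58802252-58802501, plus strand: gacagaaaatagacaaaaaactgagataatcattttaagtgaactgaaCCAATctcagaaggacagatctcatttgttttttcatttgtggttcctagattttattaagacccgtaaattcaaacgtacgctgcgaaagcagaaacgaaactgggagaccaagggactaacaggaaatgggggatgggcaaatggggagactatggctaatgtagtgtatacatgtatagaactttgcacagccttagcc
Bcl2, chr1:106714291-106714540, minus strand: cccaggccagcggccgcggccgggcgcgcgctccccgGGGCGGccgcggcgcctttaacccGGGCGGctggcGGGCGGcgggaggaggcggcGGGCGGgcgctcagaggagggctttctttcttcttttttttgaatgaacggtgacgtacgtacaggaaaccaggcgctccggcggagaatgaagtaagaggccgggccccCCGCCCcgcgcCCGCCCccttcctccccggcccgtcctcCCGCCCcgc
Bax, chr7:45466899-45467148, minus strand: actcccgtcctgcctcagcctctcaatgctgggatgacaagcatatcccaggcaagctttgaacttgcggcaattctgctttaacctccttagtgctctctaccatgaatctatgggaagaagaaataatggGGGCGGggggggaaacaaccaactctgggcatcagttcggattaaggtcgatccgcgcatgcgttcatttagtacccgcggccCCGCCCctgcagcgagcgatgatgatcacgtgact
The *Bcl2* stretch held 7 GC boxes and 36 CpG dinucleotides at a GC content of 74.8%. That of *Bax* held 2 GC boxes and 14 CpG dinucleotides at 54% GC. The *Casp8* stretch held no GC box, 1 CCAAT box and 5 CpG dinucleotides at 39.6% GC. Over 32851 RefSeq promoters of the same length the median was 6 CpG dinucleotides, 32.7% held a GC box and 33.8% a CCAAT box. *Bcl2* and *Casp8*, both near 0 in germ-like cells, had the highest and the lowest GC content of the 3 stretches. The *Casp8* stretch is not the one before the annotated gene start, so the 2 are not like for like.

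Germ-like and Sertoli-like cells carried different sets of death regulators. *Casp8*, *Bcl2* and *Bak1* were close to absent from germ-like cells, with 8, 9 and 4 UMIs over 251 cells, and *Bad* and *Bcl2l11* were several times lower there than in Sertoli-like cells. *Bax* and *Bcl2l1* were somewhat higher in germ-like cells, *Mcl1* was lower, and *Bid* differed by less than its counting interval. At a limit of 2-fold, 5 of the 9 genes were higher in Sertoli-like cells and 0 were higher in germ-like cells. Among the 11291 genes with at least 50 UMIs in both classes together, 31.5% were at least 2-fold higher in Sertoli-like cells and 18.1% at least 2-fold higher in germ-like cells. The median log2 ratio of germ-like over Sertoli-like cells was -1.66 over the 9 genes and -0.26 over all 11291.

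**Figure D1:**
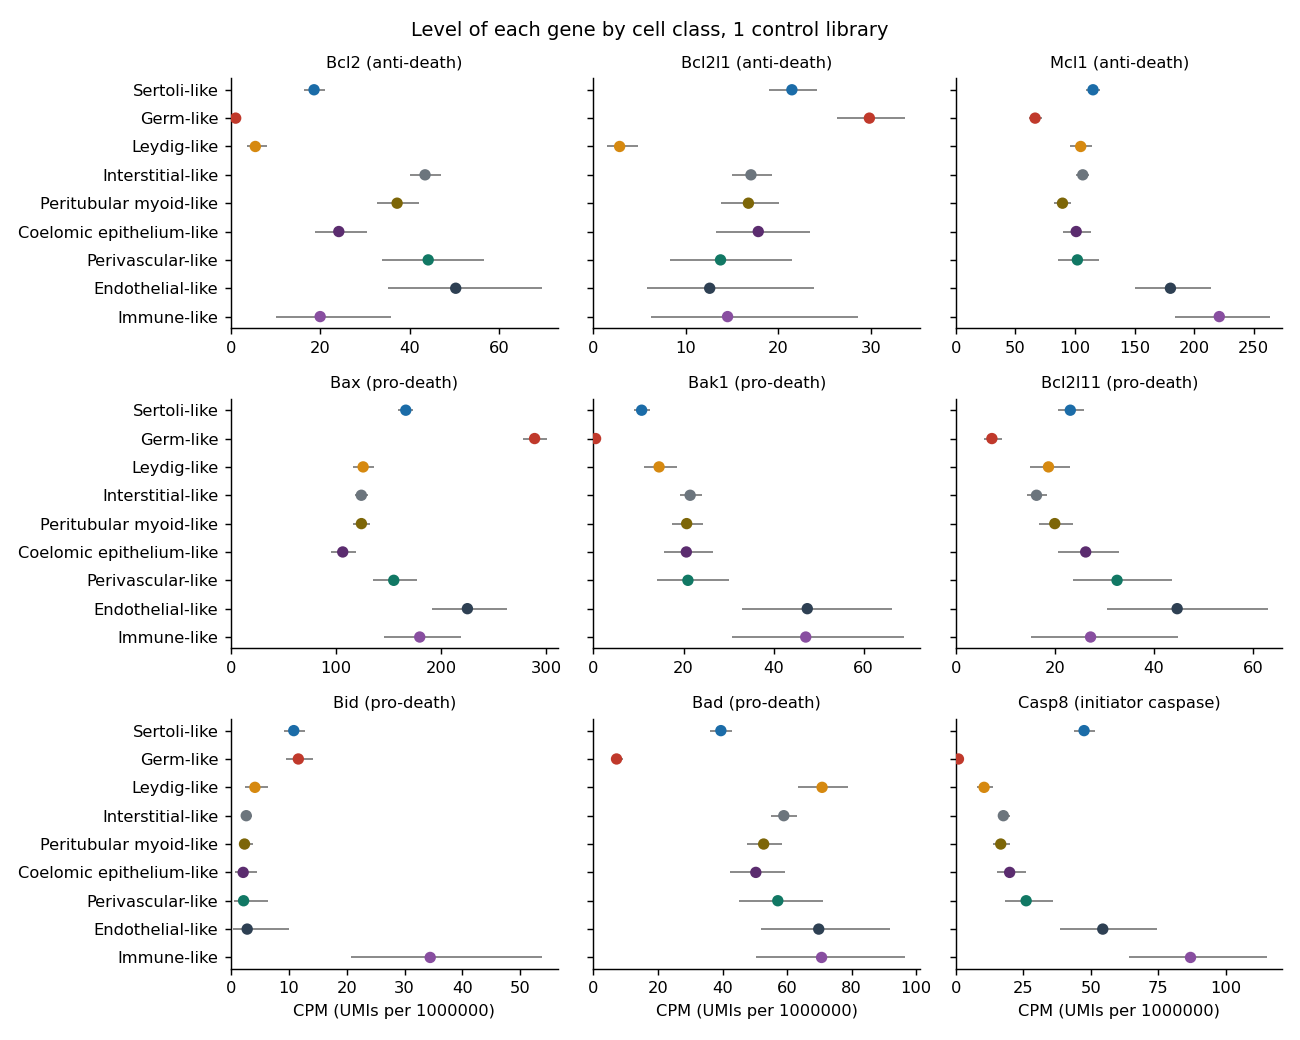
Level of each of the 9 genes (x axis, CPM, starting at 0) in the 9 named cell classes (rows) of the control library, with exact 95% Poisson intervals as lines. Germ-like cells are lowest for Bcl2, Mcl1, Bak1, Bcl2l11, Bad and Casp8 and highest for Bcl2l1 and Bax, and Leydig-like cells are lowest for Bcl2l1.

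Of the anti-death genes, *Bcl2* showed the widest range. BCL2 guards the outer mitochondrial membrane and binds BIM and BAX. Its level was 50.3 CPM (35.2 to 69.6) in endothelial-like cells, 44.1 CPM (33.7 to 56.7) in perivascular-like cells and 43.4 CPM (40.1 to 46.9) in interstitial-like cells. These highest classes had overlapping intervals, as did peritubular myoid-like cells at 37.2 CPM. Coelomic epithelium-like, immune-like and Sertoli-like cells came next at 24.1, 19.9 and 18.6 CPM, again with overlapping intervals. The immune-like interval (9.95 to 35.7, from 11 UMIs) also overlapped with those of peritubular myoid-like, perivascular-like and endothelial-like cells. Its place below them is therefore not settled. Leydig-like cells followed at 5.43 CPM (3.52 to 8.02) and germ-like cells at 1.04 CPM (0.474 to 1.97), each below the class before it without overlap. *Bcl2* was thus 17.9 times lower in germ-like than in Sertoli-like cells (9.28 to 39.7). Its log2 ratio, -4.16, was -3.14 with no doublets removed, -5.59 with the doublet rate doubled and -2.97 per cell.

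*Bcl2l1* took a different order. BCL-XL acts much as BCL2 does and is known as the survival protein of maturing red cells. Germ-like cells had the highest level, 29.8 CPM (26.3 to 33.7), followed by Sertoli-like cells at 21.5 CPM (19.0 to 24.1), a ratio of 1.39 (1.17 to 1.65). The next 6 classes lay between 12.6 and 17.8 CPM, and neighbours in that order had overlapping intervals. Leydig-like cells stood apart at 2.83 CPM (1.504 to 4.83), from 13 UMIs in 226 cells.

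*Mcl1*, whose short-lived product blocks BAK1 and BIM, was the most even of the 3. It ranged from 66.5 CPM (61.2 to 72.1) in germ-like cells to 221 CPM (184 to 264) in immune-like cells, a span of 3.33-fold (2.71 to 4.05). Endothelial-like cells, at 180.1 CPM, overlapped with the immune-like class, and the 6 somatic classes from Sertoli-like (115 CPM) to peritubular myoid-like cells (89.5 CPM) overlapped each with its neighbour. Germ-like cells were 1.73 times below Sertoli-like cells (1.57 to 1.91). The order of these 2 classes held in CPM and not per cell. Counted as UMIs per cell, without allowance for depth, *Mcl1* was higher in germ-like cells, with a log2 ratio of 0.40 in place of -0.79.

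The 2 effectors lay at opposite ends in germ-like cells. *Bax* was highest there, at 289 CPM (277 to 300.2), and 1.74 times above Sertoli-like cells (1.64 to 1.84), which had 166 CPM (159 to 173). Endothelial-like cells were second at 225 CPM (191 to 262), and coelomic epithelium-like cells lowest at 106 CPM (94.6 to 119). The other classes lay between 124 and 179 CPM. *Bak1*, by contrast, was at 0.461 CPM (0.126 to 1.18) in germ-like cells, from 4 UMIs, against 10.7 CPM (8.97 to 12.6) in Sertoli-like cells, a 23.2-fold difference (8.86 to 86.3). Its log2 ratio, -4.54, was -6.36 with the doublet rate doubled, -3.84 in cells of 15000 to 30000 UMIs and -3.35 per cell. Endothelial-like and immune-like cells had the most, 47.5 and 47.1 CPM. The interstitial-like, perivascular-like, peritubular myoid-like and coelomic epithelium-like classes were between 20.6 and 21.5 CPM. *Bak1* overlaps the gene *Ggnbp1* on the other strand, which held 328 UMIs in all kept cells, and no strand setting for the counting was given in the sources used here.

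Among the BH3-only genes, *Bad* and *Bcl2l11* were lowest in germ-like cells, and *Bid* had another pattern. *Bad*, whose product is held inactive by survival kinases, was at 7.14 CPM (5.48 to 9.16) in germ-like cells and 39.5 CPM (36.1 to 43.1) in Sertoli-like cells, 5.53 times higher in the latter (4.24 to 7.32). Its log2 ratio, -2.47, was -3.13 in cells of 15000 to 30000 UMIs and -1.28 per cell. The 7 other classes had more than Sertoli-like cells, from 50.3 CPM in coelomic epithelium-like to 70.8 CPM (63.4 to 79.0) in Leydig-like cells, although the interval of the lowest of them overlapped with that of Sertoli-like cells. *Bcl2l11*, whose product BIM responds to loss of matrix contact and of growth factors, was at 7.26 CPM (5.58 to 9.29) in germ-like cells and 23.1 CPM (20.5 to 25.9) in Sertoli-like cells, 3.18 times higher in the latter (2.42 to 4.25). Its log2 ratio, -1.67, was -2.92 in cells of 15000 to 30000 UMIs and -0.48 per cell. Endothelial-like cells again came first, at 44.7 CPM (30.6 to 63.1).

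*Bid* was the scarcest gene of the 9, with 350 UMIs in all kept cells. It was at 34.4 CPM (20.7 to 53.8) in immune-like cells, 11.6 CPM (9.48 to 14.1) in germ-like cells and 10.8 CPM (9.12 to 12.8) in Sertoli-like cells. The germ-like to Sertoli-like ratio was 1.07 (0.822 to 1.40), an interval that includes 1. In the other 6 classes *Bid* lay between 2.10 and 4.13 CPM. Both cell types of the testis cord, Sertoli-like and germ-like, therefore had more of it than every class outside the cords other than immune-like cells, and their intervals did not overlap with those of Leydig-like, interstitial-like, peritubular myoid-like, perivascular-like or coelomic epithelium-like cells. *Bid* overlaps *Bcl2l13* on the other strand and *Bad* overlaps *Gpr137*, which held 916 and 432 UMIs, so the unstated strand setting bears on both. *Bax* overlaps *Gm45808* on its own strand, for which no UMI was counted.

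*Casp8*, the initiator of the death receptor route, was common in Sertoli-like cells and nearly absent from germ-like cells. Sertoli-like cells had 609 UMIs, 47.5 CPM (43.8 to 51.4), and germ-like cells 8 UMIs, 0.922 CPM (0.398 to 1.82), a 51.6-fold difference (26.0 to 120.0). Its log2 ratio, -5.69, was -4.86 with no doublets removed, -4.50 per cell and, with germ-like cells set to 3 counts, -4.29 in cells of 15000 to 30000 UMIs. The intervals of the *Casp8*, *Bcl2* and *Bak1* ratios overlapped, so these 3 cannot be ranked. Immune-like cells were at 87.0 CPM (64.2 to 115) and endothelial-like cells at 54.5 CPM (38.7 to 74.4), and the interval of the latter overlapped with that of Sertoli-like cells. The perivascular-like, coelomic epithelium-like, interstitial-like and peritubular myoid-like classes followed with 16.6 to 26.0 CPM and Leydig-like cells with 10.4 CPM (7.69 to 13.8). Sertoli-like cells had 2.70 times the level of interstitial-like cells (2.33 to 3.14). Against all other kept cells together, *Casp8* (3.08-fold, 2.76 to 3.45) and *Bid* (2.15-fold, 1.72 to 2.67) were the 2 of the 9 genes at least 2-fold higher in Sertoli-like cells, and 0 were 2-fold lower. Of 13176 genes in that comparison 12.4% were 2-fold higher and 21.4% 2-fold lower.

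**Figure D2:**
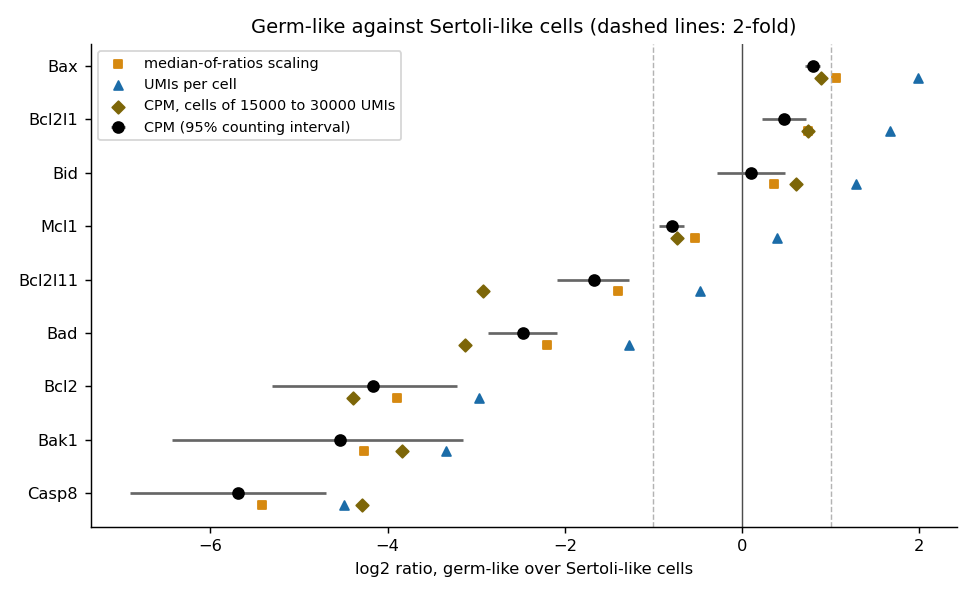
Log2 ratio of germ-like over Sertoli-like cells for each gene, from CPM with 95% counting intervals (circles), median-of-ratios scaling (squares), UMIs per cell (triangles) and CPM of cells of 15000 to 30000 UMIs alone (diamonds, where Casp8 had no UMI in germ-like cells and is drawn at 3 counts). Casp8, Bak1, Bcl2 and Bad lie left of the dashed 2-fold line on all 4 scales, and Mcl1 changes side when counted per cell.

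Stray RNA in the droplets bears on the lowest of these values. The 11 Sertoli markers were present in germ-like cells at 0.701% to 4.66% of their level in all other cells, and the 7 interstitial markers at 0.926% to 1.77%. *Bak1*, *Casp8* and *Bcl2* were in germ-like cells at 2.54%, 3.40% and 3.51% of their level in all other cells, within the range of the Sertoli markers and above that of the interstitial markers. As ratios with their counting intervals these were 0.0254 (0.00691 to 0.0653), 0.0340 (0.0146 to 0.0672) and 0.0351 (0.0160 to 0.0668), and each interval reached below the highest interstitial marker. With so few UMIs, a low level in germ-like cells and stray RNA cannot be told apart for these 3 genes. *Bad* at 13.3% and *Bcl2l11* at 35.3% lay above both ranges.

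Except for *Bcl2l1*, the same differences appeared in the share of cells with a UMI once every cell had been thinned to 5000 UMIs. The thinning, 1 random draw, left out 11 Sertoli-like, 6 germ-like and 3 Leydig-like cells. *Casp8* was found in 20.7% of Sertoli-like cells (18.0% to 23.6%, exact Clopper-Pearson) and 0.816% of germ-like cells (0.0990% to 2.92%). Without thinning, when the deeper germ-like cells had more chances of a UMI, the shares were 46.0% and 3.19%. *Bcl2* was found in 8.98% of Sertoli-like cells and in 0 of 245 germ-like cells, which at that depth allows a share of up to 1.22% of cells with a UMI (1.49% by the exact interval). Without thinning, 7 of 251 germ-like cells (2.79%) held a UMI of *Bcl2*. *Bax* was found in 54.3% of Sertoli-like cells (50.8% to 57.7%) and 70.6% of germ-like cells (64.5% to 76.2%). In a second random draw its shares were 56.9% and 76.3%, the latter just above that interval. The intervals do not cover the spread between draws. For *Bid* the shares were 5.51% (4.06% to 7.28%) and 6.12% (3.47% to 9.90%). Those of *Bcl2l1* were 11.4% (9.30% to 13.7%) in Sertoli-like and 14.3% (10.2% to 19.3%) in germ-like cells, with overlapping intervals.

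**Figure D3:**
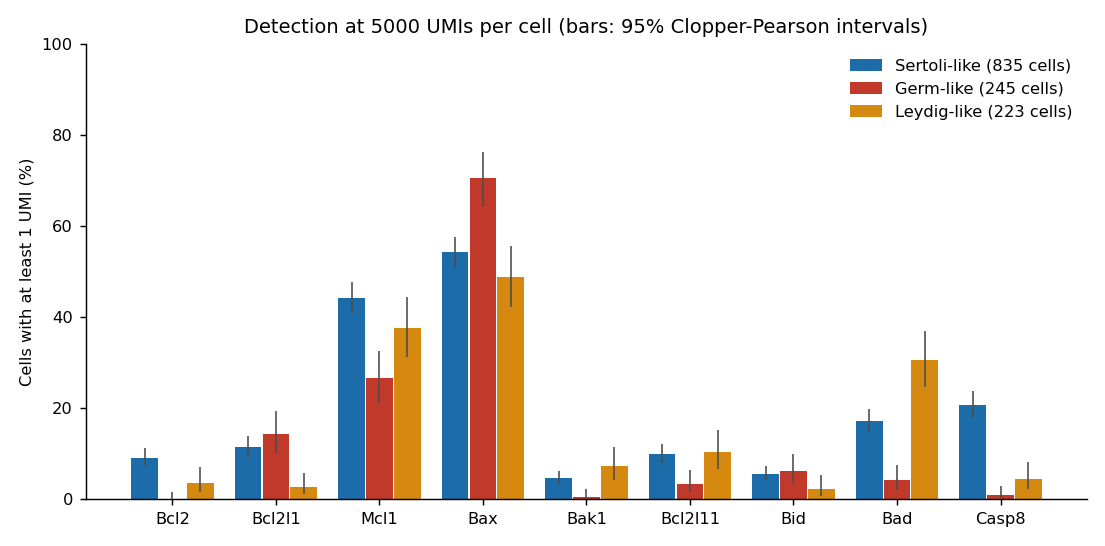
Share of cells with at least 1 UMI of each gene (y axis, %) after 1 random thinning of every cell to 5000 UMIs. Sertoli-like, germ-like and Leydig-like cells are shown, with exact 95% Clopper-Pearson intervals. Bax is found in 70.6% of germ-like cells and Bcl2 in none, and Leydig-like cells have the lowest share for Bcl2l1, 2.69%.

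For the 8 BCL2-family genes among the members, the make-up differed more than the sum between Sertoli-like and germ-like cells. Together they stood at 405 CPM in Sertoli-like cells and 413 CPM in germ-like cells. The sum and the shares below hold for these 8 genes and not for the whole family. Among those left out, the effector *Bok* was at 263 CPM in Sertoli-like and 6.80 CPM in germ-like cells. The BH3-only gene *Pmaip1* was at 0.468 and 63.0 CPM. *Bcl2*, *Bcl2l1* and *Mcl1* made up 38.3% (36.9% to 39.6%) of these UMIs in Sertoli-like cells and 23.6% (22.2% to 25.02%) in germ-like cells. *Bax* alone gave 70.0% in germ-like cells against 40.99% in Sertoli-like cells. In the other 7 classes the anti-death share ran from 32.6% (30.3% to 34.9%) in Leydig-like to 42.8% (41.5% to 44.1%) in interstitial-like cells. The order of the 2 cord cell types rested on the most abundant pair. Without *Mcl1* and *Bax* the share was 53.8% (49.3% to 58.3%) in germ-like cells, most of it *Bcl2l1*, and 32.2% (29.95% to 34.6%) in Sertoli-like cells. Per cell, at 5000 UMIs, a pro-death UMI without any anti-death UMI was found in 46.9% of germ-like cells (40.6% to 53.4%) and 31.9% of Sertoli-like cells (28.7% to 35.1%). The germ-like interval overlapped with those of other classes, among them perivascular-like (42.2%, 32.8% to 52.0%) and Leydig-like cells (38.6%, 32.1% to 45.3%). The genes had few UMIs per cell at this depth, and 5 pro-death genes were set against 3. A missing anti-death UMI can therefore be a matter of sampling.

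**Figure D4:**
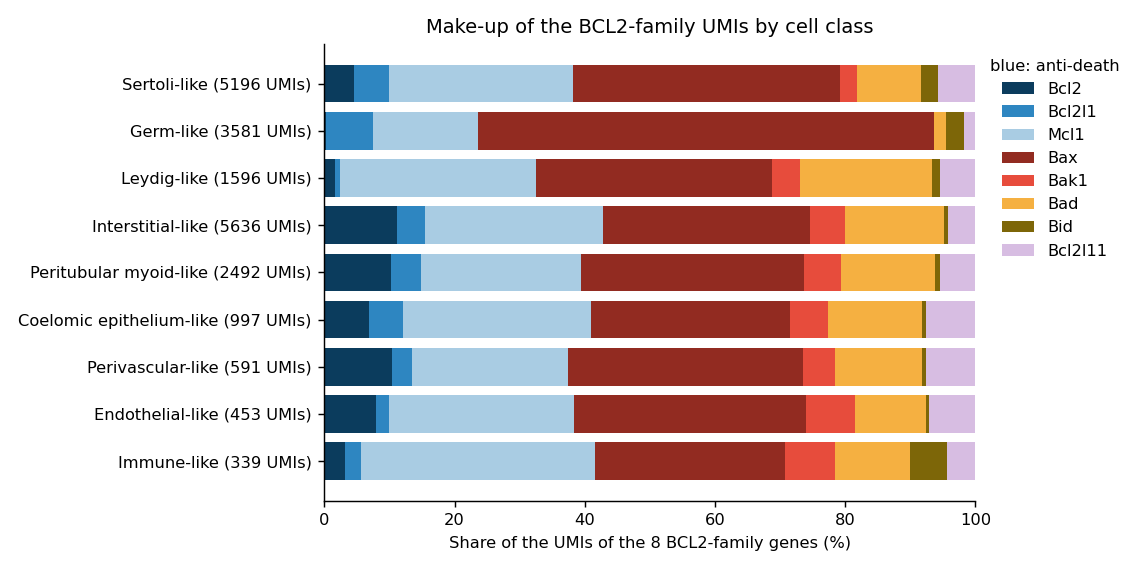
Share of each of the 8 BCL2-family genes among their summed UMIs (x axis, %) in the 9 named classes, with anti-death genes in blue at the left and the number of UMIs beside each name. Germ-like cells have the smallest blue part, 23.6%, and the largest Bax part, 70.0%.

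Leydig-like cells, the steroid-producing cells of the interstitium, were low in *Bcl2* and *Bcl2l1* and not in *Mcl1*. Compared with interstitial-like cells, *Bcl2* was 7.99 times lower (5.36 to 12.4) and *Bcl2l1* 6.03 times lower (3.46 to 11.5), while *Mcl1* had a ratio of 0.984 (0.886 to 1.09) and *Bax* one of 1.01 (0.921 to 1.11). *Bcl2* and *Bcl2l1* were the 2 of the 9 genes at least 2-fold lower in Leydig-like cells, and 0 were 2-fold higher. Of 11061 genes in this comparison, 23.4% were 2-fold lower and 10.2% 2-fold higher, so 2 of 9 is close to the share of all genes. *Mcl1* gave 30.2% of the UMIs of the 8 BCL2-family genes in Leydig-like cells, *Bcl2* 1.57% and *Bcl2l1* 0.815%. Without *Mcl1* and *Bax* the anti-death share was 7.09% (5.07% to 9.60%), the lowest of all classes. Over 13 alternatives the levels in Leydig-like cells ranged from 4.13 to 8.93 CPM for *Bcl2*, highest at resolution 0.4. Those of *Bcl2l1* ranged from 2.83 to 5.32 CPM and were 4.90 CPM or more at resolution 0.4, with the doublet rate doubled and under both looser outlier filters.

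The wider death pathway was described by 9 lists with 58 genes, the 9 above included. Of the 49 others, 36 had at least 50 UMIs in germ-like and Sertoli-like cells together, of which 15 were 2-fold higher in Sertoli-like cells (41.7%) and 6 in germ-like cells (16.7%), beside 31.5% and 18.1% of all genes. Their median log2 ratio was -0.73. In the list of death receptors, ligands and adaptors, 5 of the 6 genes tested were 2-fold higher in Sertoli-like cells, beside 31.5% of all genes. These were *Tnfrsf1a*, *Fadd*, *Tradd*, *Ripk1* and *Cflar*. The list was made up of genes of the death receptor route, so their link to caspase 8 is not a result. The TNF receptor gene *Tnfrsf1a* was at 58.4 CPM in Sertoli-like and 2.65 CPM in germ-like cells, and *Cflar*, whose product FLIP restrains caspase 8, at 48.8 and 4.84 CPM. *Fadd*, the adaptor that recruits caspase 8, was at 20.1 and 4.84 CPM. The sixth gene tested, the TRAIL receptor *Tnfrsf10b*, was 3.39 times higher in germ-like cells (2.13 to 5.54). The ligands *Fasl*, *Tnfsf10* and *Tnf* had 6, 6 and 0 UMIs in all kept cells.

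The effector list held the *Bax*-related gene *Bok* beside *Bax* and *Bak1*. *Bok* was at 263 CPM (254 to 272) in Sertoli-like cells and 6.80 CPM (5.17 to 8.77) in germ-like cells, so that *Bax* was the 1 effector of the 3 that was not 2-fold lower in germ-like cells. Among all genes, 31.5% were 2-fold lower there. Of the anti-death genes outside the 9, *Bcl2l2* (BCL-W, known for its part in male fertility) was highest in Sertoli-like cells, 31.2 CPM (28.2 to 34.4), 2.70 times the next class. *Bcl2a1a* and *Bcl2l10* had 2 and 4 UMIs. In the caspase list *Casp6*, an executioner, was at 136 CPM in Sertoli-like and 7.60 CPM in germ-like cells, while *Casp2* and *Casp9* were within 2-fold. *Casp1*, the inflammatory caspase, was highest in immune-like cells at 59.8 CPM (41.2 to 84.0). No UMI of *Casp14* was counted.

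A BH3-only gene outside the 9 was highest in germ-like cells. *Pmaip1* (NOXA, a TRP53 target that antagonises MCL1) was at 63.0 CPM (57.8 to 68.5) in germ-like and 0.468 CPM in Sertoli-like cells, from 547 and 6 UMIs, and the next class had 9.06 CPM. In the TRP53 list *Mdm2*, *Cdkn1a* and *Aen* were 2-fold higher in germ-like cells and 0 of 6 were 2-fold lower. Among all genes in this comparison, 18.1% were 2-fold higher and 31.5% 2-fold lower in germ-like cells. *Mdm2*, the ligase that restrains TRP53, was at 99.9 CPM (93.3 to 107) in germ-like cells, 2.50 times the next class. *Trp53* itself was at 60.0 CPM in germ-like and 109 CPM in Sertoli-like cells. Among the other BH3-only genes *Bmf* and *Bik* were highest in endothelial-like cells, 34.9 and 54.5 CPM, and 29 of the 34 UMIs of *Hrk* were in Sertoli-like cells, at 2.26 CPM (1.52 to 3.25). *Mlkl*, the executor of necroptosis, was at 6.32 CPM (5.02 to 7.86) in Sertoli-like cells, with 0 UMIs in germ-like cells, so it was at least 18.3-fold higher in Sertoli-like cells when the germ-like value is set to the 3 counts that a count of 0 allows. *Ripk3*, which acts on *Mlkl*'s product, *Bbc3* of the BH3-only list and *Apaf1* of the apoptosome were also 2-fold higher in Sertoli-like cells. So were *Birc2*, *Birc3* and *Htra2* of the list of inhibitors of apoptosis and their antagonists. *Bmf* was 3.72 times higher in germ-like than in Sertoli-like cells (2.39 to 5.93).

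Within Sertoli-like cells the level of some members differed by the cell-cycle phase called from standard score lists, which hold none of the 9 genes. *Casp8* was at 68.3 CPM (59.2 to 78.3) in the 190 cells called S and 39.0 CPM (34.2 to 44.2) in the 468 called G1, a ratio of 1.75 (1.45 to 2.12). The S to G1 ratio was 2.24 (1.69 to 2.98) in interstitial-like cells and 1.63 (1.04 to 2.58) in peritubular myoid-like cells, so 3 classes shared the direction. *Bcl2l11* was 1.83 times higher (1.40 to 2.40) in G2M-called than in G1-called Sertoli-like cells and 0.674 times (0.467 to 0.957) in interstitial-like cells. *Bad* was lower in G2M-called cells of both, 0.640 times (0.503 to 0.808) and 0.757 times (0.633 to 0.901). In peritubular myoid-like cells the G2M to G1 intervals of *Bcl2l11* (0.852, 0.540 to 1.33) and *Bad* (0.799, 0.616 to 1.03) included 1. *Bcl2l1* was lower in S-called than in G1-called Sertoli-like cells, 0.684 times (0.483 to 0.954). For the remaining genes of the 9, the Sertoli-like intervals included 1. Many ratios were compared, with no allowance for their number. The median depth of Sertoli-like cells was 13183 UMIs in G1, 15752 in S and 18719 in G2M, and its part in these differences was not tested.

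**Figure D5:**
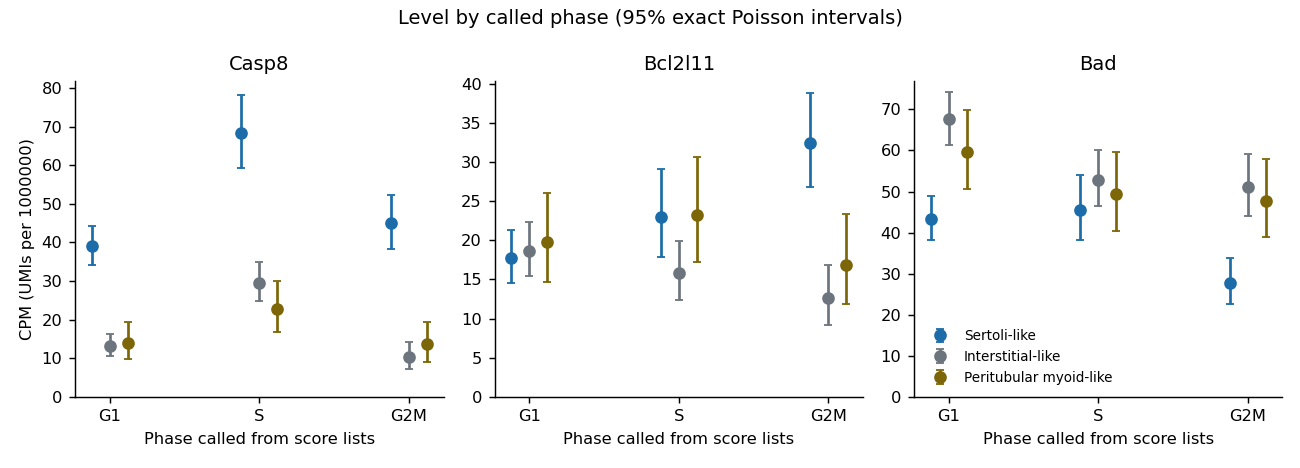
Level (y axis, CPM) of Casp8, Bcl2l11 and Bad by the phase called from cell-cycle score lists (x axis) in Sertoli-like, interstitial-like and peritubular myoid-like cells, with exact 95% Poisson intervals. Casp8 is highest in S-called cells of all 3 classes, and Bcl2l11 is highest in G2M-called cells in Sertoli-like cells alone.

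For each member the gene outside the lists with the most similar pattern was found by Pearson's r of log2(CPM + 1) over the 9 classes, among 11118 genes. It was *Slc43a3* for *Bcl2* (r = 0.99), *Pole* for *Bcl2l1* (0.96), *Uhmk1* for *Mcl1* (0.99), *Usp31* for *Bax* (0.99), *Srd5a3* for *Bak1* (0.99), *Prickle3* for *Bcl2l11* (0.98), *Sema4d* for *Bid* (0.97), *Tmem176b* for *Bad* (0.98) and *Cyfip1* for *Casp8* (0.98). The 9 points come from 1 library and differ in depth, and with so many genes searched a high r is a description alone.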

How the data were processed

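Single-cell RNA was measured in 1 control library (10x Genomics 3' chemistry, version 3) of fetal testes. The deposited matrix holds raw UMI counts by gene and barcode. Per the study's methods the authors used Cell Ranger with mm10 (GRCm38) and an added YFP sequence. The submitters' processing notes name Cell Ranger 3.0.2 and 3.1.0, and the study's methods another version. The mutant library was not analysed here.

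Barcodes with at least 200 genes were kept (372 were below), 204 doublets (4.04%) were removed by the share of artificial doublets among neighbours, and 1031 barcodes were removed as outliers in UMIs, genes (both on a log scale), mitochondrial share (upper side) or the share of ribosomal-protein genes, at 3 median absolute deviations, leaving 3814. Cells were clustered after the study's methods in R 4.3.3 (Seurat 5.3.0, sctransform 0.4.2) with 3000 variable genes less the 11 cell death genes among them, 30 components and resolution 0.8. Clusters were named from marker lists. A name needed at least 3 detected markers, a mean log2 ratio of 1 and a median marker share per cell of 0.25 of the cluster's mean, and these limits were set after the clusters had been seen. Levels and intervals were computed in Python 3.11.15 with scipy 1.17.1 and numpy 2.4.6.

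Levels are CPM over the summed cells of a class with exact Poisson intervals, shares have exact Clopper-Pearson intervals, and ratios have conditional exact binomial intervals, all at 95%. Thinning drew 5000 UMIs per cell without replacement, and each share rests on 1 random draw unless a second is named. The ratio, background and thinning steps were tested on simulated data. The members and lists were chosen with earlier results of these data known. List genes are named where their level is highest in 1 class of at least 30 cells, with at least 20 UMIs there and 2 times the next class, or where they hold fewer than 10 UMIs. The other list genes named for the germ-like against Sertoli-like comparison were chosen after their values were seen. Some list genes that enter the counts are not reported here. Alternatives in doublet, outlier, resolution, gene choice, scaling and depth were recomputed. No test was made, because 1 library has no replicate.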

Additional observations from a re-analysis of the deposited data

Results flagged for a closer look

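The 1031 barcodes removed as outliers lie outside the comparisons above and still held UMIs of all 9 genes. They had a median of 2179 UMIs, and their summed levels were 7.13 CPM for *Bcl2*, 32.6 CPM for *Bcl2l1*, 64.8 CPM for *Mcl1*, 149 CPM for *Bax*, 5.51 CPM for *Bak1*, 9.50 CPM for *Bcl2l11*, 6.18 CPM for *Bid*, 26.6 CPM for *Bad* and 9.50 CPM for *Casp8*. With all 1031 summed, the hemoglobin-rich barcodes described next included, *Bcl2l1* was the 1 gene of the 9 above its level in the kept cells, 1.74 times (1.54 to 1.97). The other 6 genes, *Bax* and *Bid* aside, were below it, from *Bcl2* at 0.285 times (0.223 to 0.360) to *Mcl1* at 0.635 times (0.585 to 0.687), *Bax* was at 0.913 times (0.865 to 0.964) and the interval of *Bid* included 1.

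Of these barcodes, 248 had more than 10% of their UMIs in hemoglobin genes, with a median hemoglobin share of 89.1% and a median of 10056 UMIs, a division made from the data after they were seen. *Bcl2l1* stood at 76.5 CPM (65.8 to 88.3) in them, from 185 UMIs, above every named class, and at 621 CPM when hemoglobin UMIs were left out of the total, against 18.8 CPM in the kept cells counted the same way. *Bcl2*, *Bak1*, *Bid* and *Casp8* had 0 UMIs there, and 3 counts would be 1.24 CPM. *Bcl2l11*, *Bad*, *Mcl1* and *Bax* were at 0.827, 2.07, 15.3 and 23.6 CPM. In the other 783 barcodes *Bcl2l1* was at 19.5 CPM (16.6 to 22.8), and its interval included the level in the kept cells. *Bax* was at 186 CPM (177 to 196) in these 783, above its 163 CPM in the kept cells. Its lower level over all removed barcodes thus did not hold there. *Bcl2*, *Mcl1*, *Bak1*, *Bcl2l11*, *Bad* and *Casp8* were still below the kept cells, and the interval of *Bid* included their level.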

How the results depend on the processing

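The number of kept cells ranged from 3618 with the doublet rate doubled to 4845 without the outlier filter. The 5 genes 2-fold higher in Sertoli-like cells stayed 5 in 13 of 14 alternatives and were 4 per cell (*Bcl2l11* at a log2 ratio of -0.48). The count in germ-like cells, 0, became 3 with UMIs per cell in place of CPM (*Bax*, *Bcl2l1* and *Bid*) and 1 with median-of-ratios size factors (*Bax*, log2 ratio 1.06 in place of 0.80), and was 0 in the other 12. Counting per cell makes no allowance for the greater depth of germ-like cells, so it raises the ratio of every gene. The share of all genes past 2-fold on either scale is not given here. The sign of the ratio changed for *Mcl1* alone, per cell (0.40). Leaving out *Mcl1* and *Bax* moved the anti-death share from 38.3% to 32.2% in Sertoli-like cells and from 23.6% to 53.8% in germ-like cells, and the other 14 alternatives gave 37.9% to 38.4% and 23.0% to 24.3%. Some of the 14 could not move a share within a class. These were UMIs per cell, median-of-ratios size factors and CPM without mitochondrial, ribosomal-protein and hemoglobin genes. Adding the low-depth cluster to Sertoli-like cells could not move the germ-like share. Over 13 alternatives *Casp8* was 43.2 to 68.6 CPM in Sertoli-like cells and 0 to 1.58 CPM in germ-like cells, where the 0 came from the 44 germ-like cells of 15000 to 30000 UMIs. Of the 81 levels, 67 to 81 stayed within 1.5-fold, and 2 of these alternatives had no immune-like class (72 levels). Thinning to 3000 UMIs left 4 of 18 shares within their intervals. Fewer UMIs per cell lower such shares in any case, so this count does not bear on the differences between classes. The share of *Bcl2* in germ-like cells was 0 at both depths in the draw used here. In a second random draw it was 0 at 5000 UMIs and 0.402% at 3000 UMIs. The window of 15000 to 30000 UMIs, within which germ-like cells were still deeper (median 26038 UMIs against 17475 in 342 Sertoli-like cells), and the low-depth cluster added to Sertoli-like cells were chosen after seeing the data. No paired analysis was possible because there was 1 library. The few UMIs of *Casp8*, *Bcl2* and *Bak1* in germ-like cells limit the upper end of their ratios.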

Other observations

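Germ-like cells had 451 CPM of *Bax* (410.5 to 495) in the 31 cells called S, 274 CPM (239 to 313) in the 30 called G1 and 267 CPM (255 to 280) in the 190 called G2M. The paper describes control germ cells of this age as becoming mitotically quiescent, and whether the phase calls hold in germ-like cells was not tested. *Casp8* and *Bak1* had 0 UMIs in the G1-called germ-like cells. The upper limit of such a count is 4.58 CPM, above their levels in all germ-like cells, so it shows no difference between phases.

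Of the clusters without a name, that of 93 cells led by *Nts*, *Smoc2* and *Vsnl1* had *Bcl2* at 24.9 CPM (16.8 to 35.5) and *Bcl2l1* at 12.4 CPM (6.96 to 20.5), both above the intervals of Leydig-like cells, with *Bad* at 65.5 CPM (51.8 to 81.6). That of 74 cells had a median of 3564 UMIs, with 60 cells over 0.2% of their UMIs in Sertoli markers and 6 over 10% in hemoglobin genes. Its *Casp8* level, 52.0 CPM (32.6 to 78.8), was near that of Sertoli-like cells. Within interstitial-like cells, the cluster of 201 cells led by histone genes had *Casp8* at 27.1 CPM (21.3 to 34.0) and the largest cluster, of 863 cells, 15.8 CPM (13.2 to 18.7).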
